A study of Homo sapiens with 18 samples.

Results

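The 9 genes described here were EPCAM, the 4 genes of the matriptase system (ST14, PRSS8, SPINT1 and SPINT2) and 4 genes of epithelial membrane traffic and lipid supply (RAB25, MAL2, AP1M2 and CDS1). They were taken by gene symbol from 61541 genes counted in 18 RNA-seq libraries of A549, an established human lung adenocarcinoma line that the study describes as partly mesenchymal. Cells were grown in high-glucose DMEM with serum and either left untreated (control) or given sodium propionate (SP), the salt of a short-chain fatty acid, at 5 mM. Each of the 6 groups had 3 libraries: one count table held untreated cells of 24 h beside cells given SP for 3 h or 24 h, and the other held untreated cells of 3 days beside cells given SP for 3 or 12 days. These tables are called the shorter and the longer experiment below. Whether they were run apart is not stated in the sources used here. SP 12 days was compared with the control of 3 days and SP 3 h with the control of 24 h, so in both comparisons the time in culture cannot be told apart from SP.

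EPCAM is a homophilic adhesion protein of the epithelial surface that is cleaved by sheddases and by gamma-secretase. Matriptase, encoded by ST14, is a membrane serine protease that activates other surface proteins, including the protease prostasin (PRSS8), and it is held in check by the Kunitz inhibitors HAI-1 (SPINT1) and HAI-2 (SPINT2), of which HAI-1 is also needed for matriptase to reach the cell surface. EPCAM and matriptase meet in this system, since matriptase can cleave EPCAM. RAB25 is an epithelial relative of the RAB11 GTPases of recycling endosomes, MAL2 a proteolipid of apical transcytosis, AP1M2 the mu subunit of the epithelial AP-1B adaptor that sorts cargo to the basolateral side, and CDS1 an enzyme that makes CDP-diacylglycerol, the precursor of phosphatidylinositol.

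In GRCh38, EPCAM lies at chr2:47345158-47387601, ST14 at chr11:130159782-130210362, SPINT1 at chr15:40844018-40858207, SPINT2 at chr19:38244035-38292615, RAB25 at chr1:156061160-156070504 and CDS1 at chr4:84583127-84651334, all on the plus strand like MAL2, and PRSS8 at chr16:31131433-31135727 and AP1M2 at chr19:10572671-10587315 on the minus strand. The exons of SPINT1 shared 100 bases with its antisense gene SPINT1-AS1, and those of MAL2 shared 202 bases with MAL2-AS1. SPINT2 shared 12.2% of its exon length with a noncoding gene on the opposite strand and PRSS8 shared 12.0%. The strand setting of the count is not stated in the sources used here, so reads of these partners cannot be told apart. AP1M2 has 1 pseudogene by name.

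RefSeq windows upstream of the start (GRCh38.p14) were held for 4 of the 9 genes, and those of SPINT1, CDS1 and AP1M2 are shown because SPINT1 moved furthest, CDS1 rose at every time and AP1M2 fell. Each line gives the 250 bases before the start, 5′ to 3′ on the gene's own strand, at chr15:40843798-40844047, chr4:84582877-84583126 and chr19:10587313-10587562. Capitals mark CACCTG, an E-box letter sequence recognised by ZEB and SNAI repressors, and GGGCGG, the GC box, on either strand.
SPINT1: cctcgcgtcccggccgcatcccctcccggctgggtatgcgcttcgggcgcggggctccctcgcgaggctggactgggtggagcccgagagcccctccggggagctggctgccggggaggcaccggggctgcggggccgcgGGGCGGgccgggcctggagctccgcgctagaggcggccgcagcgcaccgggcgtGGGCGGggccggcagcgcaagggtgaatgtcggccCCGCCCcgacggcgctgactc
CDS1: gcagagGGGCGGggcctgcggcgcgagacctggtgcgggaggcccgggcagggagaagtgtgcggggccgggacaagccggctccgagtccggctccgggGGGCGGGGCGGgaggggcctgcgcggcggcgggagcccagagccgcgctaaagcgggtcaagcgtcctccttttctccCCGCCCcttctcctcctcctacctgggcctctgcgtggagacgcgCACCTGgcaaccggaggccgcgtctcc
AP1M2: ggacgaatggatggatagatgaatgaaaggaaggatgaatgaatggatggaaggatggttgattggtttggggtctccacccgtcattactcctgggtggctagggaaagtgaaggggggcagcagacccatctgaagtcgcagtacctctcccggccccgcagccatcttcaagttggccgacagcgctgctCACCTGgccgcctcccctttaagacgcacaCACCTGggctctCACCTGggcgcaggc
The SPINT1 window held 3 GC boxes and no CACCTG, and a second SPINT1 start that is not shown held 1 CACCTG. The CDS1 window held 4 GC boxes, of which 2 overlap, and 1 CACCTG, 27 bases before the start. The AP1M2 window held 3 CACCTG letters, at 57, 27 and 15 bases before the start, and no GC box. The window of RAB25, which is not shown, held 1 CACCTG, 41 bases before the start, and no GC box. Among 35114 upstream windows of the same length, 17.5% held CACCTG and 42.6% held GGGCGG. The windows of SPINT1 and CDS1 were rich in G and C (80.4% and 76.0%), against 58.0% for AP1M2, which equals the median of 58.0% over all windows.

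Counted reads ranged from 14187401 to 43765330 per library. Levels are given as CPM, the read count of a gene scaled by the TMM-corrected size of its library, and differences as log2 fold changes from edgeR's quasi-likelihood test with its standard error (SE) and with p adjusted by Benjamini-Hochberg over all genes tested. A gene is said to rise or fall at an adjusted p under 0.05, and is called when the adjusted p is under 0.0001 and the change at least 2-fold, the thresholds of the study. KRT8 and KRT18, keratins of simple epithelia, stood at 1887 CPM or more in every library. They belong to a list of 6 A549 and epithelial genes, of which these 2 rose at 24 h, 3 days and 12 days. The other 4, AKR1B10, AKR1C1, ALDH1A1 and ALDH3A1, fell at those times, ALDH3A1 from 1933 to 322 CPM at 3 days. PTPRC, CD3E, DCN and COL1A2, which define blood cells and fibroblasts, reached at most 0.299 CPM, while the myeloid marker CD14 rose from 3.33 to 15.5 CPM at 24 h and from 17.0 to 36.0 CPM at 3 days, but was at 3.39 CPM at SP 3 h and 18.03 CPM at SP 12 days, with no change past the test. Summed over each list, 5 blood cell markers ranged from 2.32 to 37.6 CPM, 5 fibroblast markers from 0.49 to 10.6 CPM and 5 endothelial markers from 0.24 to 2.94 CPM. CD14 made up most of the first sum, and LUM, which rose from 0.903 CPM to 3.76 at 3 days and 7.49 at 12 days, most of the second in the longer experiment. CD14 thus moved with SP at 24 h and 3 days and LUM at 3 and 12 days, and their part in the values below was not tested. The third SP 12 days library stood apart from the other 2: chi-square per degree of freedom was 19.4 and 30.8 against them and 3.10 between them, and values that rest on it are given with and without it. In the shorter experiment libraries spread more widely. The third control 24 h library was at 113 and 63.4 against the other 2, with 25.6 between them, and the third SP 3 h library at 33.4 and 70.5, with 10.4 between the other 2. In bulk RNA, fewer cells that express a gene and less RNA per cell cannot be told apart.

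At 3 days, 6 of the 8 genes tested rose, EPCAM, SPINT1, SPINT2, PRSS8, MAL2 and CDS1, against 25.2% of all genes tested, and none fell, against 23.3% (edgeR; also none at an unadjusted p under 0.05 and none by DESeq2). In some other edgeR fits AP1M2 fell. Its log2 change was -0.69 with only the 2 groups (adjusted p = 5.72e-06) and -0.70 without the third SP 12 days library (adjusted p = 1.27e-06). EPCAM, SPINT1 and CDS1 were called, against 6.58% of genes called higher in that comparison. The same 6 genes rose at 12 days, where 26.4% of all genes rose and 23.4% fell. Again no member was lower by the main edgeR fit, at an unadjusted p under 0.05 or by DESeq2. MAL2 joined the 3 called genes, against 6.88% called higher. At both times PRSS8 passed the filter on low counts only through SP libraries, as its control libraries reached at most 0.188 CPM. Its place in these counts is thus partly set by the filter. At 24 h, EPCAM, SPINT1, ST14 and CDS1 rose and AP1M2 fell among 7 tested, against 16.8% and 12% of all genes. The same limit holds for SPINT1 and ST14 in that table, whose control libraries reached at most 0.386 CPM. EPCAM and SPINT1 were called at 24 h, against 0.622% of genes called higher, but leaving out any 1 of the 9 libraries of that table brought this to 1 or 0 called genes, while 3 to 5 still rose. Without the third control library, and also without the third SP 3 h library, 1 gene was called and 5 rose, the fifth being PRSS8, which then passed the filter on low counts. A replicate block ties same-numbered libraries, in the fit of 9 libraries those of SP 3 h as well. With it, 0 genes were called in the fit of 9 libraries and 1 in the fit of the 2 groups, while 4 and 5 rose. At 3 h, SPINT1 and CDS1 were the 2 of 7 that rose, against 7.39% of all genes, and none fell, against 4.11%, either here, at an unadjusted p under 0.05 or by DESeq2. The call was met at 3 h by none of the 9 and by 0% of genes (edgeR), 2 members having an unadjusted p under 0.05, whereas DESeq2 called 1 member. The median log2 fold change of the tested members was -0.06 at 3 h, 1.42 at 24 h, 1.01 at 3 days and 2.17 at 12 days, and that of all genes lay between -0.02 and 0.00.

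**Figure D1:**
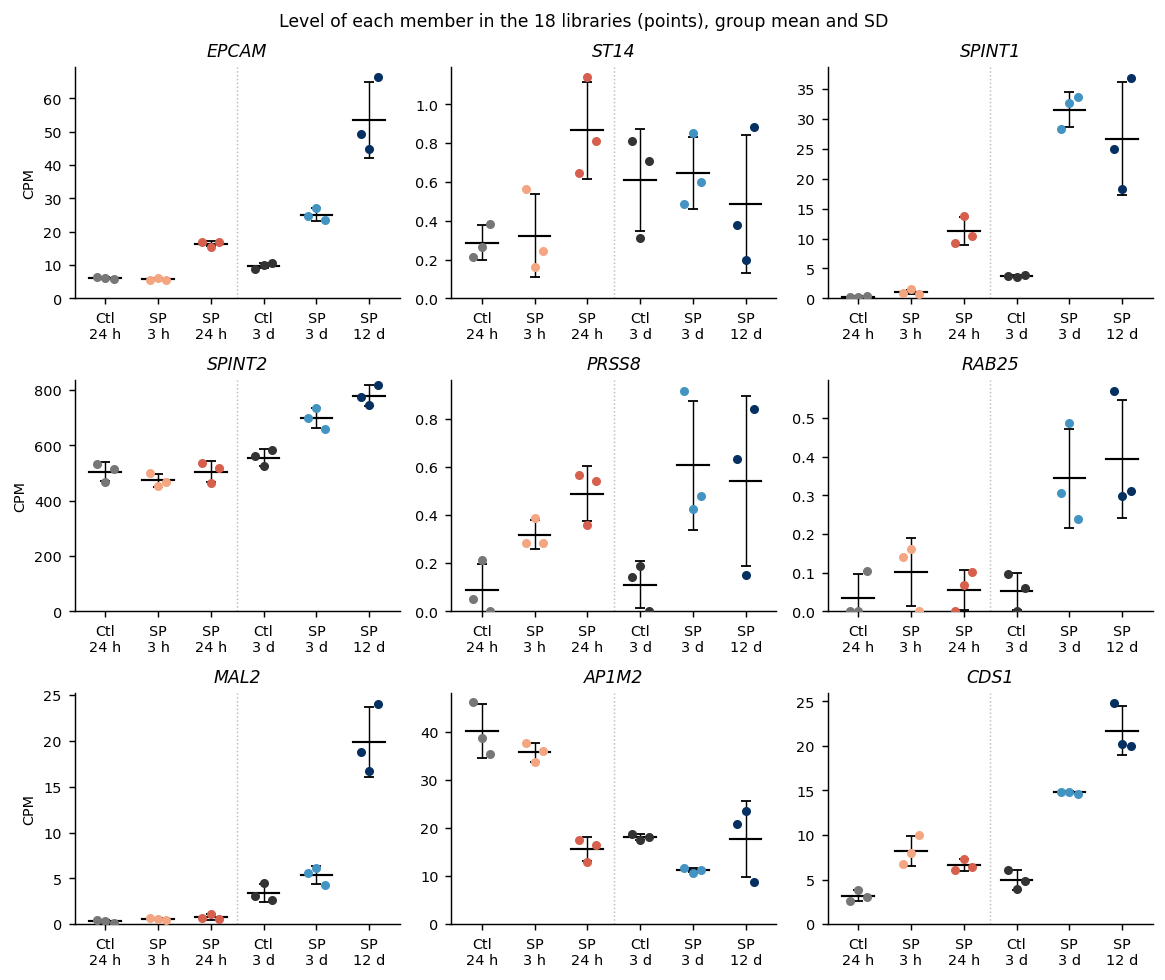
CPM of each gene (vertical axes from 0) in the 18 libraries, as points, with the group mean (line) and SD (bar), n = 3. The dotted line parts the 2 tables; EPCAM climbs from 8.94 to 10.5 CPM in the control to 44.9 CPM or more at SP 12 days, SPINT1 leaves 0.159 to 0.386 CPM at control 24 h for 9.31 CPM or more at SP 24 h, and AP1M2 drops at 24 h.

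EPCAM rose at every time from 24 h on, and further from 3 to 12 days of SP. Its level in the control 24 h libraries was 6.41, 6.08 and 5.75 CPM and in the SP 3 h libraries 5.57, 6.13 and 5.58 CPM. In the SP 24 h libraries it was 17.0, 15.5 and 16.8 CPM. The SP 3 h libraries overlapped their control, whereas all 3 SP 24 h libraries lay above it. The log2 fold change was -0.07 (SE 0.12, adjusted p = 0.813) at 3 h and 1.44 (SE 0.12, adjusted p = 8.66e-05) at 24 h, which is 2.71-fold.

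In the longer experiment EPCAM stood at 8.94, 10.0 and 10.5 CPM in the control, at 24.9, 27.2 and 23.4 CPM at SP 3 days and at 49.4, 44.9 and 66.4 CPM at SP 12 days. The 3 groups did not overlap, and the highest value belonged to the SP 12 days library that stood apart. The rise was 1.36 (SE 0.14, adjusted p = 1.47e-06) at 3 days and 2.45 (SE 0.14, adjusted p = 1.93e-09) at 12 days on the log2 scale. From 3 to 12 days EPCAM gained a further 1.09 (SE 0.13, adjusted p = 0.000144), where 4.46% of all genes rose and 3.65% fell. From 3 h to 24 h of SP it gained 1.51 (SE 0.12, adjusted p = 0.000267), where 11.7% of genes rose and 8.4% fell.

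SPINT1, the inhibitor and escort of matriptase, showed the highest fold change of the members tested at each of the 4 times. It was close to the limit of detection in the control 24 h libraries, with 0.159, 0.317 and 0.386 CPM from 3, 6 and 11 reads. The SP 3 h libraries held 0.846, 1.52 and 0.815 CPM and the SP 24 h libraries 9.31, 13.8 and 10.5 CPM. No library of one group overlapped another, so SPINT1 was already above control at 3 h and far above it at 24 h. The log2 fold change was 1.86 (SE 0.40, adjusted p = 0.0163) at 3 h and 5.22 (SE 0.35, adjusted p = 3.11e-05) at 24 h. Summed over libraries, 1159 reads at SP 24 h against 20 in the control give a ratio of 38.8, with a 95% counting interval of 25.0 to 63.8. The increase from 3 h to 24 h was 3.35 on the log2 scale (SE 0.29, adjusted p = 0.00036). The rise at 3 h no longer passed without the first or second control library or the second SP 3 h library (1.46 to 1.90). It also did not pass in the fit of only the 2 groups (1.84, adjusted p = 0.0551) or with the replicate block in that fit (1.79, adjusted p = 0.178).

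In the longer experiment the SPINT1 control was higher, at 3.83, 3.57 and 3.96 CPM. The SP 3 days libraries held 28.2, 32.7 and 33.7 CPM and the SP 12 days libraries 24.9, 18.3 and 36.8 CPM. Both SP groups lay above the control and overlapped each other. The rise was 3.06 (SE 0.24, adjusted p = 1.51e-06) at 3 days and 2.82 (SE 0.24, adjusted p = 2.64e-06) at 12 days. The step from 3 to 12 days, -0.24 (SE 0.20, adjusted p = 0.525), did not pass, but without the third SP 12 days library it became -0.57 (adjusted p = 0.000695), a fall. In a fit of all 18 libraries, added after the data had been seen, the log2 change of SPINT1 at 24 h exceeded that at 3 days by 2.11 (SE 0.46, adjusted p = 0.0106), where 6.28% of all genes differed. The 2 changes are set against controls of 0.287 and 3.79 CPM on average, each from its own count table.

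SPINT2, the other Kunitz inhibitor, was abundant throughout and moved little. Its control 24 h libraries stood at 533, 467 and 513 CPM and the SP 24 h libraries at 535, 464 and 517 CPM. The libraries overlapped, and the log2 change was 0.00 with an interval of -0.22 to 0.22. At 3 days the control held 561, 525 and 584 CPM, SP 3 days 699, 734 and 661 CPM, and SP 12 days 776, 746 and 819 CPM. These groups did not overlap, and the rises were 0.33 (SE 0.08, adjusted p = 0.00373) and 0.49 (SE 0.08, adjusted p = 0.000138). With offsets for GC content and length, the change at 3 days became 0.10 (adjusted p = 0.279) and that at 24 h -0.38 (adjusted p = 0.0521), so the early direction of SPINT2 depends on the scaling.

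ST14, the gene of matriptase itself, was rarely read. The control 24 h libraries held 4, 5 and 11 reads (0.212, 0.264 and 0.386 CPM) and the SP 24 h libraries 16, 51 and 24 reads (0.647, 1.14 and 0.811 CPM). The SP 24 h libraries lay above the control ones, with a log2 change of 1.56 (SE 0.44, adjusted p = 0.0257) and a ratio of summed reads of 3.05 (95% counting interval 1.86 to 5.22). The rise no longer passed with GC content and length offsets (0.96, adjusted p = 0.0963), with the replicate block (1.55, adjusted p = 0.0562) and without any 1 of 4 libraries (lowest value 1.29, without the second SP 24 h library). From 3 h to 24 h of SP the change was 1.62 (SE 0.44, adjusted p = 0.0312), and it too was lost with the replicate block (adjusted p = 0.0641), with the offsets (1.23, adjusted p = 0.0517) and without any 1 of 4 libraries (adjusted p from 0.0739 to 0.131). At 3 and 12 days the groups overlapped, between 0.200 and 0.886 CPM, with changes of 0.05 (95% interval -1.002 to 1.09) and -0.30 (-1.36 to 0.75).

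PRSS8, the gene of prostasin, was near the limit of counting. The control 3 days libraries held 3, 3 and 0 reads, SP 3 days 15, 7 and 8 reads, and SP 12 days 10, 3 and 19 reads. All 3 SP 3 days libraries exceeded the control, whereas SP 12 days overlapped it. The log2 change was 2.37 (SE 0.76, adjusted p = 0.017) at 3 days and 2.22 (SE 0.75, adjusted p = 0.0228) at 12 days. The first no longer passed without the third control or the first SP 3 days library (1.85 and 1.95), nor the second without the first or the third control or the first or the third SP 12 days library (1.63 to 2.48). PRSS8 missed the filter on low counts in the shorter experiment, where 46 reads at SP 24 h stood against 5 in the control, a ratio of 6.16 (95% counting interval 2.46 to 19.9), and the test without the filter gave 2.57 (adjusted p = 0.0047).

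**Figure D2:**
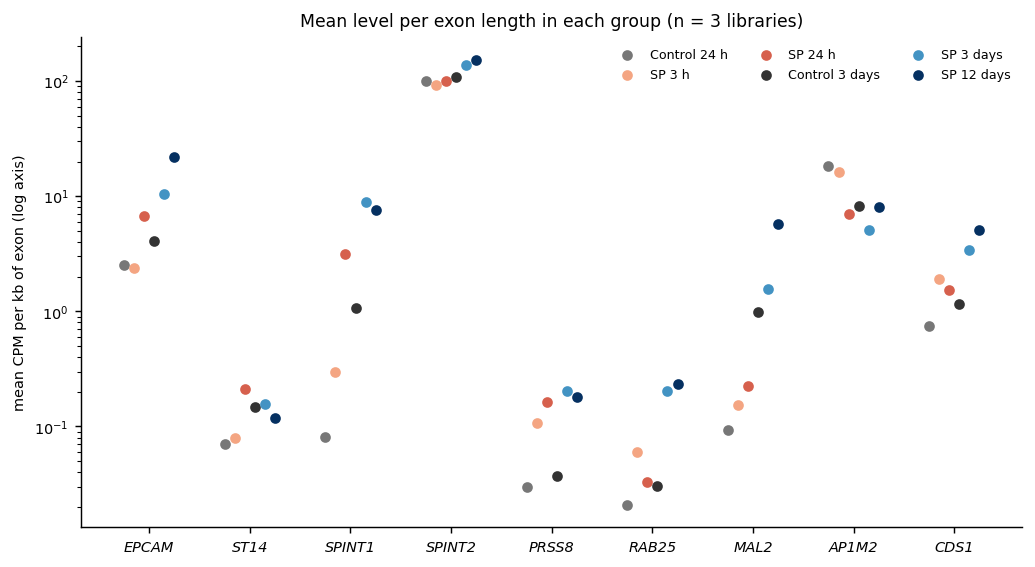
Mean CPM per kilobase of exon (log axis) of each gene in the 6 groups, n = 3 libraries each. SPINT2 is the highest in every group, from 93.2 at SP 3 h to 153 at SP 12 days, ST14, PRSS8 and RAB25 lie under 1, and SPINT1 moves from 0.0811 at control 24 h to 8.91 at SP 3 days.

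Per kilobase of exon, SPINT2 had the highest and SPINT1 the next highest mean of the matriptase system in all 6 groups. At SP 3 days the mean level was 137 ± 7.19 (SD, n = 3) CPM per kilobase for SPINT2, 8.91 ± 0.822 for SPINT1, 0.204 ± 0.0901 for PRSS8 and 0.157 ± 0.0455 for ST14. The last 2 did not differ beyond their spread. In the control 24 h libraries SPINT1 (0.0811 ± 0.0328) and ST14 (0.0698 ± 0.0217) stood at about the same level, while SPINT2 was at 99.2 ± 6.73. Thus the inhibitor that moved most with SP was not the one with the highest level. EPCAM was at 2.501 ± 0.135 CPM per kilobase in the control 24 h libraries and at 22.0 ± 4.66 at SP 12 days.

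CDS1 was the one gene of the traffic and lipid group that rose at all 4 times. The control 24 h libraries held 2.65, 3.86 and 3.09 CPM, SP 3 h 6.70, 8.01 and 10.0 CPM, and SP 24 h 6.03, 7.32 and 6.45 CPM. Both SP groups lay above the control and overlapped each other. The log2 change was 1.37 (SE 0.20, adjusted p = 0.0032) at 3 h and 1.05 (SE 0.20, adjusted p = 0.00442) at 24 h. The control 3 days libraries held 6.12, 3.95 and 4.79 CPM, SP 3 days 14.9, 14.8 and 14.7 CPM, and SP 12 days 24.8, 20.3 and 19.98 CPM. No groups overlapped, and the changes were 1.56 (SE 0.15, adjusted p = 4.66e-07) at 3 days and 2.11 (SE 0.15, adjusted p = 1.19e-08) at 12 days. The further rise from 3 to 12 days of 0.55 (SE 0.13, adjusted p = 0.0179) no longer passed without any 1 of the SP 3 days libraries or the first SP 12 days library (0.43 to 0.54).

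MAL2, at chr8:119165034-119245673, rose most at 12 days. The control 3 days libraries held 3.06, 4.45 and 2.60 CPM, SP 3 days 5.61, 6.15 and 4.25 CPM, and SP 12 days 18.8, 16.7 and 24.1 CPM. The first 2 groups overlapped, and SP 12 days lay above both. The change was 0.67 (SE 0.22, adjusted p = 0.0196) at 3 days, which no longer passed without any 1 of 4 libraries (0.52 to 0.63), and 2.57 (SE 0.20, adjusted p = 6.28e-08) at 12 days. From 3 to 12 days it gained 1.90 (SE 0.19, adjusted p = 3.88e-05). In the shorter experiment MAL2 was read 19 times in the control and 83 times at SP 24 h, with levels of 0.105 to 0.477 and 0.540 to 1.14 CPM. These did not overlap, and the change of 1.42 (SE 0.50, adjusted p = 0.059) missed the threshold. It passed with the replicate block (1.37, adjusted p = 0.0444, in the fit of 9 libraries and 1.35, adjusted p = 0.0384, in the fit of the 2 groups). It also passed without the filter (1.43, adjusted p = 0.0263) and with GC content and length offsets (1.67, adjusted p = 0.0137, and 1.63, adjusted p = 0.00862, with the block). Without the third control 24 h library it was 0.91 (adjusted p = 0.138). The mean control level was 0.317 CPM at 24 h and 3.37 CPM at 3 days, a gap between the count tables that was not tested.

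AP1M2, the epithelial mu subunit, fell. The control 24 h libraries held 46.3, 38.8 and 35.4 CPM, SP 3 h 37.6, 33.7 and 35.9 CPM, and SP 24 h 17.6, 12.9 and 16.4 CPM. SP 3 h overlapped the control and SP 24 h lay below both. The log2 change was -0.17 (SE 0.15, adjusted p = 0.546) at 3 h and -1.36 (SE 0.15, adjusted p = 0.000275) at 24 h, and from 3 h to 24 h it was -1.19 (SE 0.15, adjusted p = 0.00121).

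In the longer experiment the AP1M2 control held 18.7, 17.5 and 18.1 CPM and SP 3 days 11.6, 10.7 and 11.3 CPM. These did not overlap, yet the change of -0.69 (SE 0.31, adjusted p = 0.0989) missed the threshold. The SP 12 days libraries held 20.7, 23.6 and 8.77 CPM, so 2 lay above the control and the library that stood apart lay below it. Without that library, which also sets the spread of the fit, the change was -0.70 (adjusted p = 1.27e-06) at 3 days and 0.27 (adjusted p = 0.0214) at 12 days, and with it the latter was -0.05 (SE 0.30, adjusted p = 0.915). The step from 3 to 12 days was 0.65 (SE 0.31, adjusted p = 0.256) with the library and 0.97 (adjusted p = 2.14e-07) without it. Whether AP1M2 rose or fell at 12 days thus turned on 1 library.

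**Figure D3:**
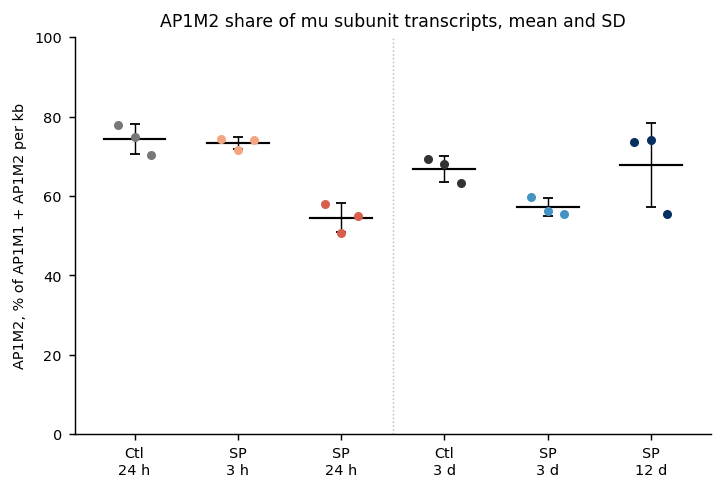
AP1M2 as a percentage of AP1M1 plus AP1M2, both per kilobase of exon (vertical axis 0 to 100%), in each library, with group mean and SD, n = 3. SP 24 h lies at 50.7 to 57.9% against 70.3 to 77.9% in its control, and 1 of the SP 12 days libraries lies at 55.5%, below the other 2.

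AP1M1, the mu subunit of the ubiquitous AP-1A adaptor, was chosen for comparison after its values had been seen. It did not pass the test in any comparison, and its change at 24 h was -0.09 (adjusted p = 0.502). The annotated exons come to 2214 bases for AP1M2 and 14094 for AP1M1, and the size of the share below rests on these lengths. Before this scaling AP1M1 was the higher in the control 24 h libraries, at 87.3 against 40.2 CPM. Per kilobase, AP1M2 made up 74.4 ± 3.85% (SD, n = 3) of both mu subunits in the control 24 h libraries and 54.6 ± 3.64% at SP 24 h. The libraries did not overlap, and a two-sided exact permutation test gave p = 0.1, the smallest it allows with 3 against 3. The share was 66.8 ± 3.20% in the control 3 days libraries and 57.1 ± 2.26% at SP 3 days, again without overlap (exact permutation p = 0.1). The SP 12 days libraries held 73.5, 74.1 and 55.5%, so 2 lay above the control range of 63.2 to 69.3% and the library that stood apart lay below it. With that library the mean was 67.7 ± 10.6% (exact permutation p = 1.0).

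RAB25, the epithelial RAB11 relative, did not reach the filter on low counts in either table. It was read 3 times over the control 3 days libraries, 17 times at SP 3 days and 22 times at SP 12 days. The ratios were 6.15 (95% counting interval 1.78 to 32.8) and 6.75 (2.03 to 35.2), and each SP library held more reads than each control one. Without the filter edgeR gave 2.51 (adjusted p = 0.0143) and 2.66 (adjusted p = 0.00527), and DESeq2 gave adjusted p = 0.0511 and 0.0341. In the shorter experiment 3, 7 and 6 reads were counted in control, SP 3 h and SP 24 h, so no difference was detectable at this depth. The intervals cover counting error only.

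**Figure D4:**
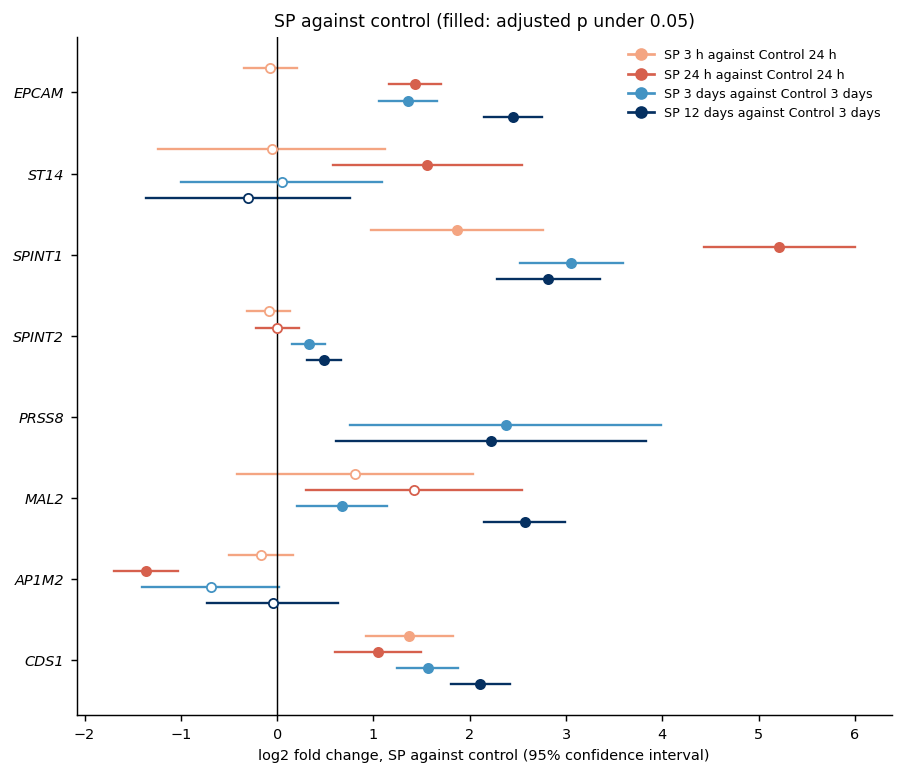
Log2 fold change of SP against control (horizontal axis) with its 95% confidence interval for the 8 genes tested at each of the 4 times, filled where the adjusted p is under 0.05. SPINT1 and CDS1 are filled at all 4 times, EPCAM from 24 h, and AP1M2 is the one filled point below 0.

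The genes that followed each member most closely over the 18 libraries, each table centred on its own mean, are a description, since all points share the 6 groups. Among 16654 genes tested in both tables, EPCAM was most like CCL26 (Pearson r = 0.97), CD70 (0.96) and KCNK1 (0.96). SPINT1 was most like SLC16A3, NPAS1 and REEP2 (each 0.99). CDS1 was most like NEURL3 (0.96), FAM210B (0.95) and PPP4R4 (0.95), and MAL2 like SH3BGRL2 (0.93), ZNF611 (0.91) and GOLM2 (0.91). AP1M2 was most like PRKAR1B (0.97), RABEPK (0.95) and EMP3 (0.93), and SPINT2 like C16orf74 (0.94), SLC35F3 (0.94) and CREG2 (0.91). ST14 had weaker neighbours, LAMTOR5-AS1 (0.84), ENSG00000272482 (0.83) and APOD (0.82). With Spearman correlation, 1 of the 3 genes stayed among the first 3 for EPCAM, SPINT2, MAL2 and CDS1 and 0 for ST14, SPINT1 and AP1M2. Among the members, EPCAM and SPINT1 had r = 0.82 and EPCAM and MAL2 0.81, while SPINT1 and AP1M2 had r = -0.84.

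**Figure D5:**
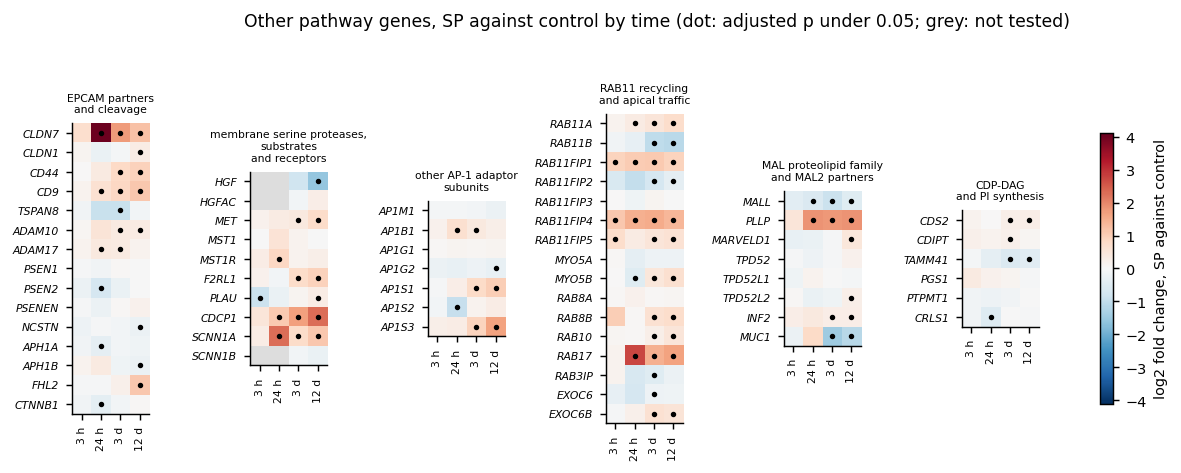
Log2 fold change of SP against control (colour) at each of the 4 times for the other genes of 6 lists, with a dot where the adjusted p is under 0.05 and grey where a gene was not tested. CLDN7 at 24 h (4.01), which passed the filter on low counts there only through SP libraries, is the deepest red. The RAB11 list holds the most dots.

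Of the partners and cleavage enzymes of EPCAM, 15 of 17 were tested. The counts of this list and the next 5 stand against all genes tested, of which 7.39% rose and 4.11% fell at 3 h, 16.8% and 12% at 24 h, 25.2% and 23.3% at 3 days, and 26.4% and 23.4% at 12 days, and with lists this short many of the counts lie near these shares. None of the 15 passed at 3 h. At 24 h 3 rose and 3 fell, at 3 days 5 rose and 1 fell, and at 12 days 6 rose and 2 fell, with medians of -0.06, 0.04 and 0.13. CLDN7, a claudin that binds EPCAM, rose by 4.01 (SE 0.44, adjusted p = 0.000275) at 24 h, from 0.211 to 3.45 CPM, and by 1.74 (adjusted p = 5.3e-05) at 3 days. In the shorter experiment its control libraries reached at most 0.212 CPM, so it passed the filter on low counts only through SP libraries. Its place in the count at 24 h is thus partly set by the filter. CLDN7 shared 10.8% of its exon length with another gene on the same strand. The tetraspanin CD9 rose by 0.63 (adjusted p = 0.000716) at 24 h and 0.84 (adjusted p = 4.51e-07) at 3 days. TSPAN8, another tetraspanin, fell at 3 days, by 0.92 on the log2 scale (adjusted p = 0.00987).

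Of 15 membrane serine proteases, substrates and receptors, 7 were tested in the shorter and 10 in the longer experiment. At 3 h 1 fell, the urokinase gene PLAU, by 0.87 on the log2 scale (adjusted p = 0.0249). At 24 h 3 rose, at 3 days 4 rose, and at 12 days 5 rose and 1 fell, with medians of 0.18 at 3 h and 0.56, 0.14 and 0.28 at the later times. CDCP1, a surface protein that matriptase cleaves, rose by 1.08 (adjusted p = 0.0173) at 24 h, 1.68 (adjusted p = 3.84e-08) at 3 days and 2.30 (adjusted p = 1.28e-09) at 12 days. SCNN1A, the alpha subunit of the epithelial sodium channel, rose by 2.30 (adjusted p = 0.002) at 24 h and 0.76 (adjusted p = 0.00397) at 3 days. MST1R, a receptor tyrosine kinase, rose by 0.84 (adjusted p = 0.0373) at 24 h.

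All 7 other AP-1 subunits were tested, and none passed at 3 h, 1 rose and 1 fell at 24 h, 3 rose at 3 days, and 2 rose and 1 fell at 12 days. The small subunit AP1S2 fell by 0.94 at 24 h (adjusted p = 0.00451). Its relatives AP1S3 and AP1S1 rose at 3 days, by 0.90 (adjusted p = 5.16e-05) and 0.80 (adjusted p = 1.73e-06). AP1S3 shared 19.7% of its exon length with another gene on the same strand. The list median was 0.11 at 24 h and 0.13 at 3 days.

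The RAB11 recycling and apical traffic list had 16 genes, all tested. At 3 h 3 rose, at 24 h 4 rose and 1 fell, at 3 days 9 rose and 4 fell, and at 12 days 9 rose and 2 fell. RAB17, an epithelial RAB of transcytosis, rose by 2.73 (adjusted p = 0.00848) at 24 h from 0.158 to 1.09 CPM and by 1.45 (adjusted p = 0.000473) at 3 days. Its control 24 h libraries reached at most 0.211 CPM, so in that table it passed the filter on low counts only through SP libraries. Its place in the count at 24 h is thus partly set by the filter. The RAB11 effector RAB11FIP4 rose by 1.11 (adjusted p = 0.00267) at 3 h, 1.45 (adjusted p = 0.000242) at 24 h and 1.51 (adjusted p = 2.5e-08) at 3 days. RAB11FIP1, an effector that also binds RAB25, rose by 0.91 (adjusted p = 0.0036) at 3 h and 1.07 (adjusted p = 2.72e-08) at 3 days. The list median was 0.35 at 3 days.

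In the MAL family and partner list 8 of 9 genes were tested, and none passed at 3 h, 1 rose and 1 fell at 24 h, 2 rose and 2 fell at 3 days, and 4 rose and 2 fell at 12 days. PLLP (plasmolipin), a proteolipid of the MAL family, rose by 1.84 (adjusted p = 0.000143) at 24 h and 1.76 (adjusted p = 1.2e-08) at 3 days. MALL fell by 0.58 (adjusted p = 0.0138) at 24 h and 0.88 (adjusted p = 3.61e-05) at 3 days, and the mucin MUC1 fell by 1.47 (adjusted p = 1.39e-05) at 3 days. Of 6 other genes of CDP-diacylglycerol and phosphatidylinositol synthesis, all tested, none passed at 3 h, 1 fell at 24 h, 2 rose and 1 fell at 3 days, and 1 rose and 1 fell at 12 days. CRLS1, the cardiolipin synthase, fell by 0.52 (adjusted p = 0.00781) at 24 h, and TAMM41, the mitochondrial CDP-diacylglycerol synthase, fell by 0.59 (adjusted p = 0.000625) at 3 days. CRLS1 shared 61.4% of its exon length with another gene on the same strand. CDS2, the relative of CDS1, rose by 0.23 (adjusted p = 0.0153) at 3 days.

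With offsets for GC content and length, the share of higher genes among all that passed moved from 58.3% to 36.9% at 24 h, from 52.0% to 39.0% at 3 days, from 53.0% to 41.4% at 12 days and from 64.3% to 49.0% at 3 h, and the median of all genes moved to -0.13 at 24 h and -0.12 at 3 days. EPCAM, SPINT1 and CDS1 were still higher than control at 24 h, 3 days and 12 days under these offsets, and AP1M2 fell at 24 h. It is not stated for every group whether the 3 libraries came from separate cultures, so the p-values measure the spread between these libraries.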

How the data were processed

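Total RNA of A549 cells was sequenced as paired ends from NEBNext Ultra libraries. The authors aligned reads to GRCh38 with STAR 2.7.9a and counted them per Ensembl gene with featureCounts. The 2 deposited tables hold raw counts of 9 libraries each, with no other sample's columns. Whether the count used strand, and how multimapping reads were treated, is not given in the sources used here.

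The analysis used edgeR 4.0.16 under R 4.3.3. The filterByExpr function at a minimum count of 10 left 17775 and 17377 of 61541 genes, TMM gave the scaling, and a robust quasi-likelihood model was fitted to the 9 libraries of each table. P-values were adjusted by Benjamini-Hochberg. Scripts were tested on simulated data. Intervals are 95%. Log2 CPM used a prior count of 2. Positions and exon lengths come from GENCODE 44. Alternatives were other size factors, no filter on low counts, DESeq2 1.42.0, fits of only 2 groups, a replicate block, GC content and length offsets (splines of 5 degrees of freedom), leaving out each library and, for likeness, Spearman correlation. A fit of all 18 libraries and the share of AP1M2 were added after the data had been seen. No replicate pair differed by sampling noise alone (chi-square per degree of freedom 2.03 to 113, genes with 20 reads or more in a pair).

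The members and lists were chosen with earlier results of these data known. Named list genes are up to 3 per list with the largest absolute change among those past the test at 3 days or 24 h. Same-numbered control and SP 24 h libraries correlated in their deviations from the group mean (r = 0.499, 0.17 and 0.504). The third control 24 h library was as close to the second SP 24 h library (0.175). Differently numbered control 24 h and SP 3 h libraries reached 0.576, so the values do not settle a pairing. The main fits had no term for pairing, and the replicate block is an alternative only.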

Additional observations from a re-analysis of the deposited data

Results flagged for a closer look

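Several members differed between times of SP treatment by a test of the difference itself. From 3 h to 24 h, the log2 change of SPINT1 was 3.35 (adjusted p = 0.00036), that of EPCAM 1.51 (adjusted p = 0.000267) and that of AP1M2 -1.19 (adjusted p = 0.00121). That of ST14 was 1.62 (adjusted p = 0.0312), which no longer passed with the replicate block (adjusted p = 0.0641), with the GC content and length offsets (adjusted p = 0.0517) or without any 1 of 4 libraries. Both times share 1 control group, so these are direct comparisons of the SP libraries. From 3 to 12 days, MAL2 rose by 1.90 (adjusted p = 3.88e-05), EPCAM by 1.09 (adjusted p = 0.000144) and CDS1 by 0.55 (adjusted p = 0.0179). In both sets, time in culture and time with SP cannot be told apart. Across the 2 tables, the change of SPINT1 at 24 h exceeded that at 3 days by 2.11 (adjusted p = 0.0106), between 1.85 and 2.51 when each library was left out in turn. The other 7 tested members did not pass that test, which does not show that their changes were alike.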

How the results depend on the processing

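Of the log2 changes of single members, 320 kept their direction and side of the threshold under the alternatives that keep all libraries of the groups compared, 12 no longer passed, 8 came to pass and 10 changed sign. Members higher at 3 h were 1 with only the 2 groups and 0 with the replicate block in that fit, against 2. In that last fit 0 of 16151 genes were higher and 0 lower. Members called at 3 h were 2 without the filter and 1 by DESeq2, against 0. Members called at 24 h were 4 by DESeq2, 0 with only the 2 groups, 1 with the replicate block in that fit and 0 with the replicate block in the fit of 9 libraries, against 2. They were 3 without the filter and 3 with GC content and length offsets, where AP1M2 met the call (-1.69, adjusted p = 3.8e-05). Members lower at 24 h were 2 with GC content and length offsets and the replicate block, against 1. Members lower at 3 days were 1 with only the 2 groups, 1 with the replicate block in that fit and 1 with the offsets and the block, against 0. This member was AP1M2, whose spread in the fit of 9 libraries rests on the third SP 12 days library. The cause of the other differences was not tested.

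The change of SPINT2 at 24 h was -0.0105 with other size factors, -0.0193 by DESeq2, -0.0096 with only the 2 groups, -0.0093 with the replicate block in that fit, -0.38 with the offsets and -0.38 (adjusted p = 0.0206) with the offsets and the block, and its change from 3 h to 24 h was -0.13 and -0.14 with the offsets, without and with the block. ST14 at 3 days was -0.38 with the offsets and -0.35 with the block added.

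Leaving out 1 library at a time, members higher ranged from 1 to 2 at 3 h, 3 to 5 at 24 h, 4 to 6 at 3 days, 5 to 6 at 12 days, 2 to 3 from 3 h to 24 h and 2 to 4 from 3 to 12 days. Members lower ranged from 0 to 1 at 3 days and from 3 to 12 days. Members called ranged from 0 to 1 at 24 h, stayed at 3 at 3 days and ranged from 3 to 4 at 12 days. Members whose change differed between 24 h and 3 days ranged from 1 to 2, the second being AP1M2 without the third SP 12 days library. The changes that turned sign in these fits ranged from -0.0597 to 0.0632 for SPINT2 at 24 h, -0.56 to 0.33 for ST14 at 3 h, -0.25 to 0.32 at 3 days, -1.17 to 0.0683 at 12 days and -1.20 to 0.0301 from 3 to 12 days, -0.73 to 0.29 for PRSS8 from 3 to 12 days and -0.34 to 0.27 for AP1M2 at 12 days. The difference between 24 h and 3 days ranged from -0.0233 to 0.15 for EPCAM and from -0.55 to 1.74 for PRSS8. Between groups other than control and SP 24 h, same-numbered libraries had r from -0.592 to 0.377, so the block there is a description. For control and SP 24 h no label gives a pairing either, and the values do not settle it. ST14, PRSS8, RAB25 and, in the shorter experiment, MAL2 and SPINT1 are limited by depth, since 3 reads in a library equal 0.067 to 0.212 CPM.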
